A study of Homo sapiens with 12 samples.

Results

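NF-kB is a family of dimeric transcription factors. Its subunits are encoded by RELA, RELB, REL, NFKB1 and NFKB2, and inhibitor proteins (IkB) hold the dimers in the cytoplasm until a receptor signal has them degraded. Several regulators, such as the inhibitor IkB-alpha (NFKBIA) and the ubiquitin-editing enzyme encoded by TNFAIP3, are themselves induced by NF-kB and dampen it again. In breast cancer the pathway is known to be active in triple-negative lines such as MDA-MB-231, where it drives cytokine genes.

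The genes described are 10 subunits and regulators: NFKB1, NFKB2, RELA, RELB, REL, NFKBIA, NFKBIZ, TNFAIP3, IRAK2 and BIRC3. They were chosen by their names, with earlier results of these data known. Their counts beside those of all genes are thus a description, not a test of the list. Every probe set that the platform annotation gives to exactly 1 of these symbols was taken. This gave 21 of the 41091 probe sets with a single gene symbol and covered 9 of the 10 genes. BIRC3 had no such probe set and was not analysed here. Of the 21 probe sets, 15 had a mean over all arrays above the 40th percentile of the single-symbol probe sets (5.46 log2). Each of the 9 genes had at least 1 of these. The brightest probe set stood for the gene, among 13225 genes tested in all.

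All groups were MDA-MB-231 cells, an established human triple-negative breast cancer line, seeded sparsely on day 1 in serum-containing medium. They were transfected on day 2 with 33 nM of a control siRNA (siControl), of siRNA mix 1 against YAP and TAZ (siYAP/TAZ#1) or of siRNA mix 2 (siYAP/TAZ#2). YAP (gene YAP1) and TAZ (gene WWTR1) are transcriptional coactivators restrained by the Hippo kinases. The cells got fresh medium on day 3 and were lysed for RNA on day 4. Each group had 4 biological replicates (A to D) handled in parallel, so the design holds 12 arrays of 1 cell line, 1 control siRNA and no stimulus of the pathway named in the labels. RNA levels of a culture cannot tell fewer expressing cells from less RNA per cell.

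Facts of the whole series were as follows. Array medians spanned 5.69 to 5.78 log2, and the correlation of replicate arrays over all genes was 0.993 or higher. YAP1 was left at 12.4% of its control level with mix 1 and 11.9% with mix 2, and WWTR1 at 19.8% and 18.3%. The line's markers vimentin (VIM), CD44 and KRT18 had group means of 11.93 log2 or more in every group, while CDH1 and PGR lay below the filter value. Of the receptors that define the line as triple-negative, ESR1 (6.31 log2 in control) and ERBB2 (7.76) lay above it. At an adjusted p below 0.05, 67.1% of all genes tested differed between mix 1 and control, 68.6% between mix 2 and control and 53.7% between the mixes. A changed gene is thus common in this experiment, and counts are set beside these shares. The 4 control arrays served as the reference for each mix, so the comparisons with control share them. Of 10 leukocyte markers 9 were measured, and their summed linear level was 387 to 461 in control, 1000 to 1160 with mix 1 and 1030 to 1190 with mix 2. Lysozyme (LYZ) read 4.95 log2 in control and 9.14 and 9.18 with mix 1 and mix 2. CD14 (5.15, 6.27 and 6.39), CD3D (5.58, 6.50 and 6.89) and CSF1R (5.88, 6.64 and 6.41) were higher with both mixes too. CD3E, CD79A, MS4A1 and ITGAM stayed close to control, and the defining leukocyte marker PTPRC stayed below the filter value in each group (4.04, 3.80 and 4.47). Of the 4 endothelial markers the sum was 173 to 214 in control, 456 to 523 with mix 1 and 317 to 360 with mix 2. PECAM1 carried that rise (6.54, 8.62 and 7.88 log2), while CDH5, which defines the type, read 3.97, 3.92 and 3.94. VWF stayed close to control (5.57, 5.52 and 5.60), and KDR was lower with mix 1 only (5.30, 4.56 and 5.31). The 3 fibroblast markers summed to 103 to 121 in control, 151 to 161 with mix 1 and 188 to 209 with mix 2, with PDGFRB at 5.90, 6.57 and 6.78 log2, LUM at 3.19, 4.26 and 5.41, and DCN at 5.47, 5.38 and 5.53. The part of these markers in the results was not tested.

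The sequences before the start sites of the genes that changed most are shown because several regulators of NF-kB are its own targets. Each is the 250 bases upstream of the first annotated start, from RefSeq (GRCh38.p14), printed 5′ to 3′ on the gene's strand. Capitals mark matches to the kappa-B consensus, the site that NF-kB dimers bind. The windows are NFKBIA at chr14:35404750-35404999 (minus strand), NFKBIZ at chr3:101827740-101827989, TNFAIP3 at chr6:137867009-137867258, NFKB1 at chr4:102501109-102501358 and IRAK2 at chr3:10164669-10164918 (all plus strand).
NFKBIA: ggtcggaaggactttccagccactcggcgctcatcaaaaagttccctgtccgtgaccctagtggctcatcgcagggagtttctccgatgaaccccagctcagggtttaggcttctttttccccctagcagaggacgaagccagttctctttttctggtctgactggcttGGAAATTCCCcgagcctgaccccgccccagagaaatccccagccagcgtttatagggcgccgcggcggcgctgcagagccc
NFKBIZ: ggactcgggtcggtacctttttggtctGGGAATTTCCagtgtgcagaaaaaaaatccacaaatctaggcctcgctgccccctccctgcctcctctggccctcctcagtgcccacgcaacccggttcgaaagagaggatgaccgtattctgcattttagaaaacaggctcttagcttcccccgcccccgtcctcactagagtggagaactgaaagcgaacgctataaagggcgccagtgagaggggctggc
TNFAIP3: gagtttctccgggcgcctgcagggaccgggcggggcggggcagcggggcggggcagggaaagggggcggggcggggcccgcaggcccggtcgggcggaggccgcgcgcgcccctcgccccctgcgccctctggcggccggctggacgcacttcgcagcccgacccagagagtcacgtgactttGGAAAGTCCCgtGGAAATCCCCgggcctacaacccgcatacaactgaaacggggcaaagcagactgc
NFKB1: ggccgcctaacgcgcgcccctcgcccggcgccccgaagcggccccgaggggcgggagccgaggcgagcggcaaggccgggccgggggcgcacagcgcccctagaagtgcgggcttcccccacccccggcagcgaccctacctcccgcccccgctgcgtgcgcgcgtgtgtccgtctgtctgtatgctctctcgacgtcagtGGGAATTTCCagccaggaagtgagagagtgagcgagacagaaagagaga
IRAK2: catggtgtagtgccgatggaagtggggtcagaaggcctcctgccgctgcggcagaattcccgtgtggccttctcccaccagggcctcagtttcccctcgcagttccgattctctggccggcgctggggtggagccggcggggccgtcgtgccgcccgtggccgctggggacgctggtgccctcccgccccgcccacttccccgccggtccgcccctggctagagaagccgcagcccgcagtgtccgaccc
The matched letters were GGAAATTCCC in NFKBIA, 81 to 72 bases before the start, GGGAATTTCC in NFKBIZ (223 to 214) and GGGAATTTCC in NFKB1 (49 to 40). TNFAIP3 held GGAAAGTCCC (67 to 58) and GGAAATCCCC (55 to 46). The IRAK2 window held no match, which says only that these letters are not in these bases.

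The RefSeq table held 14 windows for 9 of the 10 genes, all but RELB, and 9 windows of 7 genes had a kappa-B match on either strand. Of all 35116 windows of the same length, 5.21% had one. The other matches lay in NFKB2, REL and BIRC3. Matches that overlap each other on the palindromic consensus were found in NFKB2 and REL. The core GGAATG, to which the TEAD partners of YAP and TAZ bind, was searched on both strands too. It was found in 1 of the 14 windows, the second start of NFKB1 (as CATTCC, 45 to 40 bases before it), against 11.9% of all windows. The motif TGANTCA of AP-1 occurred in none of the 14 windows, against 6.57% of all. Genes with a kappa-B match were found both among those that rose (NFKBIA, NFKBIZ) and among those that fell (TNFAIP3, NFKB1), and IRAK2, which rose, had none.

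The comparison of mix 1 with control sets 1 siRNA mix against 1 control siRNA. It cannot tell loss of YAP and TAZ from other effects of the siRNA sequences, which were not tested. The NF-kB genes moved in both directions. The inhibitor gene NFKBIA, the atypical IkB gene NFKBIZ and the receptor-proximal IRAK2 rose. NFKB1 and TNFAIP3 fell, and the remaining subunits moved by at most 1.35-fold. All 9 genes passed the test, 7 higher and 2 lower (67.1% of all genes tested passed, 34.8% higher and 32.3% lower), and the median log2 difference was 0.34 against 0.005 over all genes. For 7 of the 9 the mix 1 and control arrays did not overlap (63.3% of all genes). At least 2-fold changes were seen for IRAK2, NFKBIA and NFKBIZ, or 3 of 9 genes, where 16.4% of all genes passed at that size.

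With mix 2 the same 3 genes were higher and the same 2 lower, while NFKB2, RELA, RELB and REL did not pass. That made 5 of 9 called (68.6% of all genes), 3 higher (36.7% of all) and 2 lower (31.9% of all). The same 5 had groups without overlap (64.8% of all genes). The median log2 difference was 0.16, against 0.03 over all genes. At least 2-fold changes were those of IRAK2, NFKB1 and TNFAIP3 (18.4% of all genes). Directly between the mixes, 6 of 9 genes were lower with mix 2 and none was higher (53.7% of all genes called, 25% lower and 28.7% higher). Their arrays did not overlap for the same 6 genes (46.1% of all genes), and none differed by 2-fold (6.25% of all genes).

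**Figure D1:**
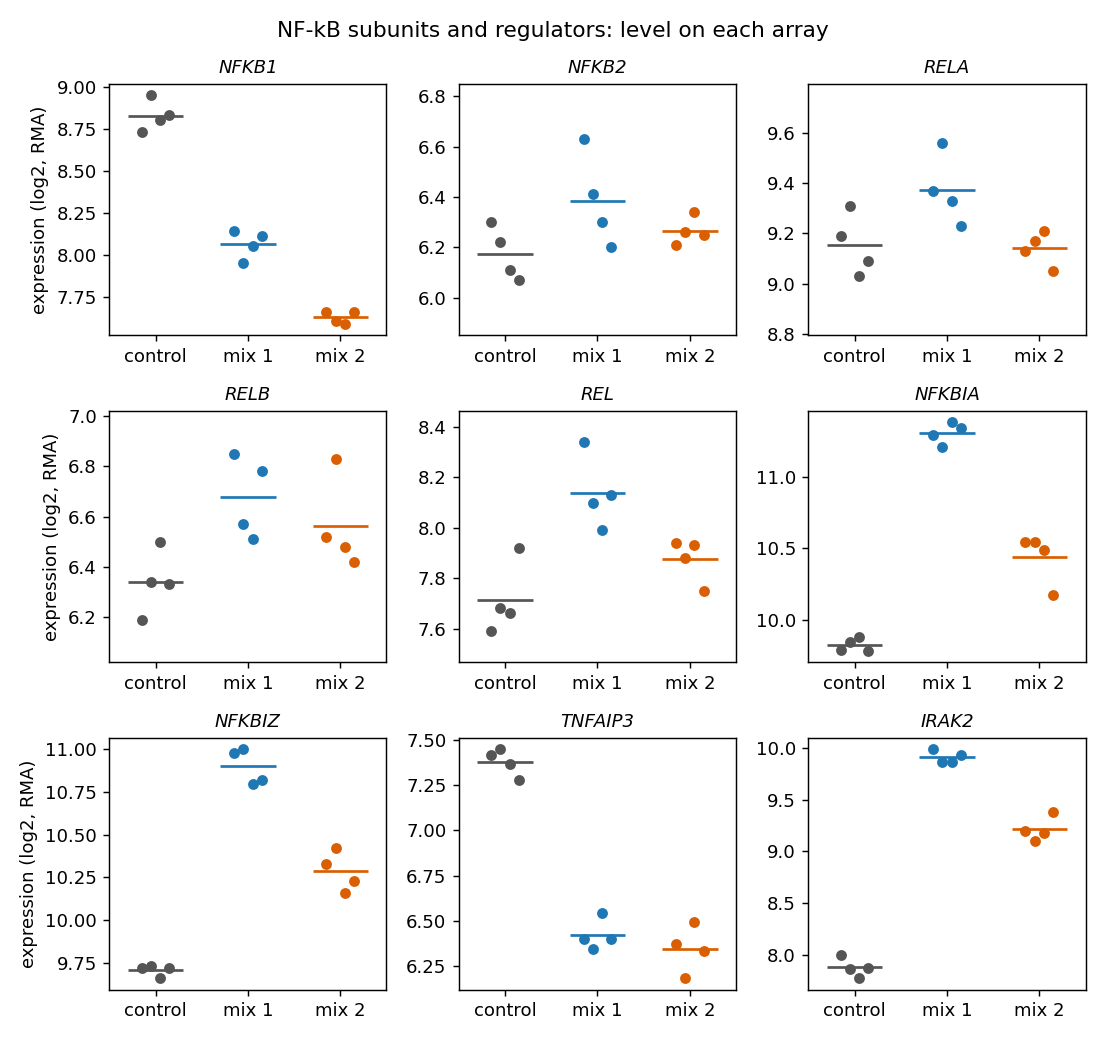
Expression level (log2, RMA) of the 9 measured NF-kB genes on each of the 12 arrays, with control in grey, mix 1 in blue and mix 2 in orange. Lines are group means (n = 4), and each panel has its own vertical axis, so levels of different genes are not comparable. For NFKB1, NFKBIA, NFKBIZ and IRAK2 the 3 groups stand apart, and for TNFAIP3 both mixes lie below all control arrays.

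IRAK2 had the largest fitted difference from control under both mixes, though with mix 2 its size was close to that of NFKB1. It encodes a kinase-like adaptor that passes signals from interleukin-1 and Toll-like receptors to the ubiquitin ligase TRAF6. Its log2 levels were 8.0, 7.86, 7.77 and 7.87 on control arrays A to D, 9.99, 9.87, 9.87 and 9.94 with mix 1 and 9.20, 9.10, 9.18 and 9.38 with mix 2. The 3 groups did not overlap, with mix 1 highest, mix 2 between and control lowest. The rise was 4.12-fold with mix 1 (log2 difference 2.04, SE 0.07, adjusted p = 4.71e-12) and 2.53-fold with mix 2 (1.34, adjusted p = 2.62e-10). The mixes themselves differed by -0.70 (95% interval -0.85 to -0.55, adjusted p = 8.47e-07), lower with mix 2. Of all genes tested, 2.73% changed by more than IRAK2 with mix 1 and 10.9% with mix 2. The 2 other IRAK2 probe sets lay near background on all arrays, between 2.67 and 4.17 log2, so this result rests on 1 probe set.

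NFKBIA encodes IkB-alpha, the inhibitor that keeps NF-kB dimers in the cytoplasm and is degraded on stimulation. Control arrays A to D read 9.79, 9.84, 9.88 and 9.78 log2, mix 1 arrays 11.29, 11.21, 11.38 and 11.34, and mix 2 arrays 10.54, 10.54, 10.49 and 10.17. Again the 3 groups stood apart in the order mix 1, mix 2, control, and replicate D of mix 2 was the lowest of its group. NFKBIA rose 2.79-fold with mix 1 (1.48, SE 0.08, adjusted p = 4.22e-10) and 1.53-fold with mix 2 (0.61, adjusted p = 6.09e-06). The difference between the mixes was -0.87 (95% interval -1.04 to -0.70, adjusted p = 3.49e-07). Its other probe set was near background, with group means of 4.62, 4.78 and 4.53.

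NFKBIZ encodes IkB-zeta, an atypical nuclear IkB protein that works with NF-kB as a coactivator of a subset of inflammatory genes. Its levels were 9.72, 9.73, 9.66 and 9.72 log2 in control, 10.98, 11.00, 10.80 and 10.82 with mix 1, and 10.33, 10.42, 10.16 and 10.23 with mix 2. The order of the groups was that of NFKBIA, with no overlap. The rise was 2.29-fold with mix 1 (1.19, SE 0.07, adjusted p = 9.32e-10) and 1.49-fold with mix 2 (0.58, adjusted p = 2.46e-06), and mix 2 lay 0.61 below mix 1 (difference -0.61, adjusted p = 2.77e-06). A second probe set gave almost the same differences from control, 1.19 and 0.56.

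NFKB1 encodes the precursor that is processed to a DNA-binding subunit without an activation domain of its own, the usual partner of RELA. The control arrays lay at 8.73, 8.95, 8.80 and 8.83 log2, those of mix 1 at 8.14, 7.95, 8.05 and 8.11, and those of mix 2 at 7.66, 7.61, 7.59 and 7.66. No groups overlapped, and here mix 2 was lowest. NFKB1 was left at 58.9% of control with mix 1 (-0.77, SE 0.06, adjusted p = 3.88e-08) and at 43.6% with mix 2 (-1.20, adjusted p = 2.33e-10). The mixes differed by -0.43 (95% interval -0.56 to -0.30, adjusted p = 3.11e-05). It was the subunit gene with the largest fitted change in each comparison, and it was read by 1 probe set.

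TNFAIP3 encodes a ubiquitin-editing enzyme that shuts off signalling from tumour necrosis factor and Toll-like receptors. It read 7.42, 7.45, 7.37 and 7.28 log2 in control, 6.40, 6.34, 6.54 and 6.40 with mix 1, and 6.37, 6.18, 6.49 and 6.33 with mix 2. All 8 knockdown arrays lay below all control arrays, and the mixes overlapped. It was left at 51.4% of control with mix 1 (-0.96, SE 0.07, adjusted p = 1.72e-08) and at 48.7% with mix 2 (-1.04, adjusted p = 6.46e-09). Between the mixes the difference was -0.08 (95% interval -0.23 to 0.08, adjusted p = 0.391). Its second probe set fell by 0.87 on the log2 scale under each mix, to group means of 5.43, just below the filter value.

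Of the subunits with an activation domain, REL had the largest fitted difference with mix 1, while with mix 2 none of them passed. REL encodes c-Rel, best known from lymphocytes. Its control arrays read 7.59, 7.68, 7.66 and 7.92 log2, mix 1 arrays 8.34, 8.10, 7.99 and 8.13, and mix 2 arrays 7.94, 7.88, 7.93 and 7.75. Mix 1 lay above both other groups, while mix 2 and control overlapped. REL rose by 0.43 with mix 1 (SE 0.09, adjusted p = 4.40e-04). With mix 2 the difference was 0.16 (95% interval -0.02 to 0.35, adjusted p = 0.108), which passed only without control replicate D (0.23, adjusted p = 0.0231). Between the mixes it was -0.27 (adjusted p = 0.0174), a call lost without mix 1 replicate A (-0.20, adjusted p = 0.0615) or mix 2 replicate D (-0.22, adjusted p = 0.0503). The 3 other probe sets of REL above the filter also rose with mix 1, by 0.38 to 0.46, and none passed with mix 2 (0.10 to 0.18); 1 of these 3 was lower with mix 2 than with mix 1 (-0.35, adjusted p = 0.0116).

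RELA and RELB, which encode the main activating subunit and the partner of the NFKB2 product in the non-canonical pathway, changed little. RELA read 9.19, 9.31, 9.03 and 9.09 log2 in control, 9.37, 9.56, 9.33 and 9.23 with mix 1, and 9.13, 9.17, 9.21 and 9.05 with mix 2. The control arrays overlapped both other groups, and all mix 1 arrays lay above all mix 2 arrays. The mix 1 difference of 0.22 passed (adjusted p = 0.0239), but not with arrays centred on their medians (0.19, adjusted p = 0.0765) or with the mean of its probe sets (0.12, adjusted p = 0.119). Nor did it pass without control replicate C (0.18, adjusted p = 0.0806), control replicate D (0.20, adjusted p = 0.0644) or mix 1 replicate B (0.15, adjusted p = 0.0856). The second RELA probe set showed 0.03 (adjusted p = 0.755). With mix 2 RELA differed from control by -0.02 (95% interval -0.18 to 0.15, adjusted p = 0.882). Its difference of -0.23 between the mixes (adjusted p = 0.0218) was lost without mix 1 replicate B (-0.17, adjusted p = 0.0755) or mix 2 replicate D (-0.20, adjusted p = 0.0552).

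RELB lay at 6.19, 6.34, 6.50 and 6.33 log2 in control, 6.85, 6.57, 6.51 and 6.78 with mix 1, and 6.52, 6.83, 6.48 and 6.42 with mix 2. Mix 1 was just above the control range, and mix 2 overlapped both. The difference was 0.34 with mix 1 (SE 0.10, adjusted p = 0.00849) and 0.22 with mix 2 (adjusted p = 0.0651). The latter passed when control replicate C was left out (0.28, adjusted p = 0.0349), and likewise for mix 2 replicate D (0.27, adjusted p = 0.0397). The mixes differed by -0.12 (95% interval -0.33 to 0.10, adjusted p = 0.368).

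NFKB2 encodes the precursor of the non-canonical pathway. Its levels were 6.30, 6.22, 6.11 and 6.07 log2 in control, 6.63, 6.41, 6.30 and 6.20 with mix 1, and 6.21, 6.26, 6.34 and 6.25 with mix 2. The groups overlapped in every comparison. The mix 1 difference of 0.21 was at the edge of the threshold (SE 0.08, adjusted p = 0.0403) and passed under 8 of 18 alternatives. It was lost without control replicate B (0.23, adjusted p = 0.0516), C (0.19, adjusted p = 0.0963) or D (0.18, adjusted p = 0.113), without mix 1 replicate A (0.13, adjusted p = 0.145) or B (0.20, adjusted p = 0.0785), and without mix 2 replicate B (adjusted p = 0.05003). It was also lost without a filter (adjusted p = 0.0643), with centred arrays (0.18, adjusted p = 0.111), with only those 2 groups (adjusted p = 0.0686) and with a robust trend in the fit (adjusted p = 0.0693). With mix 2 it was 0.09 (95% interval -0.09 to 0.27, adjusted p = 0.37), and between the mixes -0.12 (95% interval -0.30 to 0.06, adjusted p = 0.256). The other NFKB2 probe sets lay below the filter and were not tested. They differed from control by -0.12 and -0.22 with mix 1, and by -0.30 and -0.14 with mix 2.

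**Figure D2:**
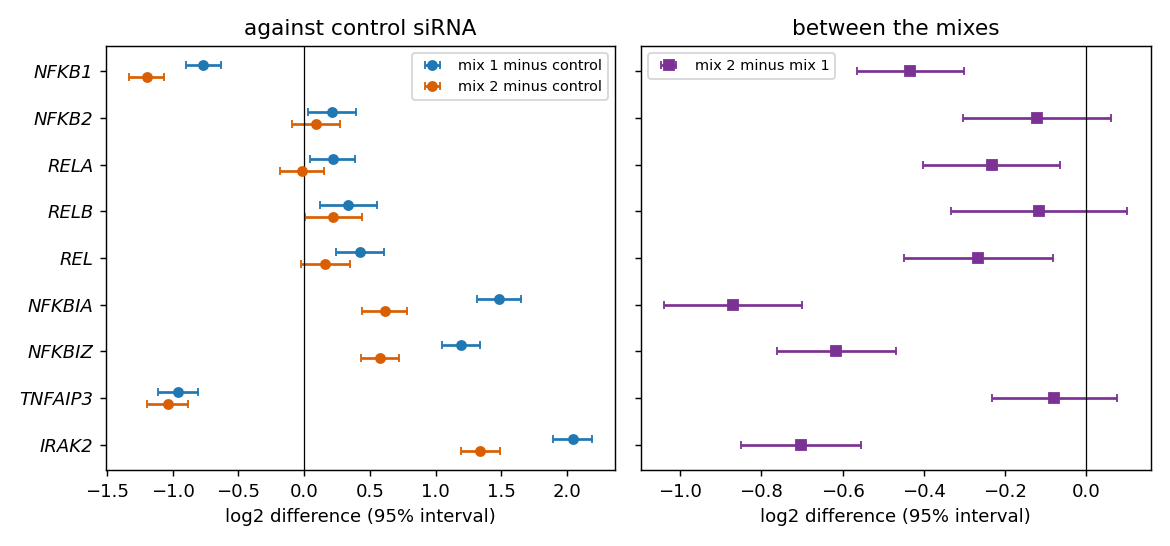
Log2 differences of the 9 NF-kB genes with 95% intervals from the limma fit (n = 4 arrays per group). Left, mix 1 (blue) and mix 2 (orange) minus control; right, mix 2 minus mix 1. IRAK2, NFKBIA and NFKBIZ lie right of 0 under both mixes and NFKB1 and TNFAIP3 left of it, and in the right panel no gene lies above 0.

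Probe sets of the same gene were compared next, in a fit over all 24650 single-symbol probe sets above the filter. With mix 1, 14 of the 15 NF-kB probe sets passed (65% of all probe sets), the exception being the dimmer one of RELA. With mix 2, 7 of 15 passed (66.2% of all probe sets), namely those of NFKB1, NFKBIA, NFKBIZ, TNFAIP3 and IRAK2. Between the mixes 8 of 15 passed, all lower with mix 2 (51.3% of all probe sets). None of these NF-kB genes had probe sets above the filter that passed in opposite directions. The 6 probe sets below the filter ranged from 2.67 to 5.50 log2 over all arrays, and their mean differences from control lay between -0.30 and 0.22.

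**Figure D3:**
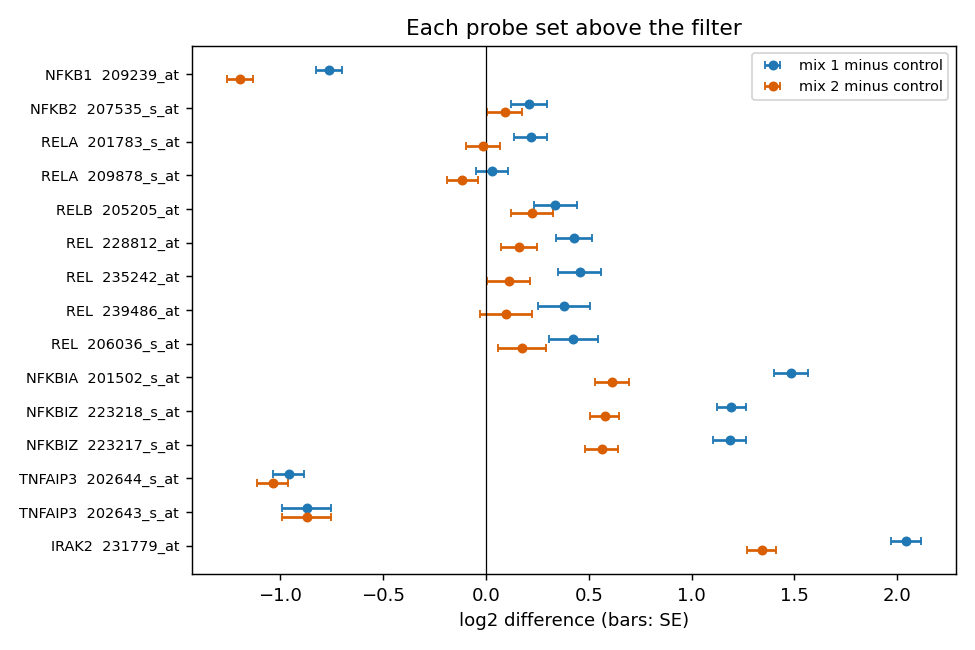
Log2 difference from control of each of the 15 NF-kB probe sets above the filter, with mix 1 in blue and mix 2 in orange; bars are SE (n = 4 arrays per group). The 4 probe sets of REL lie at 0.38 to 0.46 with mix 1 and at 0.10 to 0.18 with mix 2, and both probe sets of NFKBIZ and of TNFAIP3 lie close together.

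The genes whose profile over the 12 arrays was most like that of the 3 NF-kB genes with the widest range of group means were found by the root mean square difference of gene-centred log2 values. NFKB1, with a range of 1.20, was barely ahead of NFKBIZ with 1.19. For NFKBIA the nearest of 13209 genes was IER3, an immediate early gene and an NF-kB target, at a distance of 0.06 log2. Its arrays read 12.34, 12.33, 12.33 and 12.30 in control, 13.76, 13.68, 13.83 and 13.80 with mix 1, and 12.95, 12.97, 12.90 and 12.82 with mix 2. PCYOX1 (0.08) and S100A2 (0.11) followed. For IRAK2 they were HAS2, a hyaluronan synthase (0.12), NAV1 (0.12) and the adaptor GRB10 (0.13). For NFKB1 they were the splicing protein gene SNRPB (0.07), the stress gene GADD45A (0.08) and SELENOI (0.08).

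The other genes of the pathway were taken from 4 lists by role, 95 genes in all. Of these 76 were tested, 11 lay below the filter and 8 had no probe set with a single name and were not analysed here. With mix 1, 39 of 76 rose and 15 fell (71.1% called, against 67.1% of all genes), with a median of 0.19. With mix 2, 36 rose and 16 fell (68.4%, against 68.6%), with a median of 0.16. Between the mixes 18 were higher and 25 lower with mix 2 (56.6%, against 53.7%). The shares called in either direction were near those of all genes, but the split by direction against control was not. Over all genes 34.8% rose and 32.3% fell with mix 1, and 36.7% and 31.9% with mix 2. The listed genes thus leaned towards a rise with both mixes. Between the mixes, 28.7% of all genes were higher and 25% lower with mix 2, while more listed genes were lower. The lists were chosen with earlier results known, so this lean is a description and was not tested.

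Among 16 ligands and receptors, 11 rose and 2 fell with mix 1 (81.2% called against 67.1% of all genes; median 0.85). With mix 2, 8 rose and 3 fell (68.8% called against 68.6%; median 0.25). The death ligand gene TNFSF10 (TRAIL) rose by 3.03 log2 with mix 1 (SE 0.10, adjusted p = 4.57e-12) and by 1.03 with mix 2, a difference of -2.00 between the mixes (adjusted p = 9.93e-10). The interleukin-1 receptor IL1R1 (2.03 with mix 1 and 0.43 with mix 2) and the double-stranded RNA sensor TLR3 (1.84 and 0.99) also rose under both. IL1R1 lay below the filter value in control (5.10 log2) and passed the filter through its level with mix 1, so its calls and size are uncertain. With mix 2 its arrays overlapped those of control (adjusted p = 0.0301). The bacterial lipoprotein receptor TLR2 (0.29 with mix 1 and 1.36 with mix 2) and the tumour necrosis factor receptor TNFRSF1B (1.10 and 1.30) rose under both, and TLR2 was higher with mix 2 than with mix 1 by 1.07. TNFRSF12A, the receptor of the cytokine TWEAK, fell by 1.31 on the log2 scale with mix 1 and by 1.25 with mix 2 (adjusted p = 8.69e-11 and 1.11e-10). TNFRSF11A fell with mix 1 (-0.73), read -0.15 with mix 2 (adjusted p = 0.0681) and was higher with mix 2 than with mix 1 by 0.57. The interleukin-1 coreceptor IL1RAP fell with mix 2 (-0.75), where its other probe set read 0.22 and did not pass (adjusted p = 0.122). With mix 1 IL1RAP read -0.17 (adjusted p = 0.101). That mix 1 difference passed with a replicate block and without control replicate C, but not without a filter or with centred arrays.

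TNFRSF21, death receptor 6, went opposite ways. It read 10.93, 10.97, 10.92 and 10.84 log2 in control, 12.25, 12.33, 12.22 and 12.17 with mix 1, and 9.48, 9.52, 9.48 and 9.10 with mix 2. The 3 groups stood far apart, with control in the middle. It rose by 1.33 with mix 1 (adjusted p = 2.70e-09) and fell by 1.52 on the log2 scale with mix 2 (adjusted p = 5.20e-10), a difference of -2.85 between the mixes (SE 0.08, adjusted p = 5.56e-12). Its other probe set moved likewise, by 1.24 and -1.72.

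Of 25 adaptors and kinases, 11 rose and 7 fell with mix 1 (median 0.14), and 13 rose and 5 fell with mix 2 (median 0.19). The share called was 72% with each mix, near the 67.1% and 68.6% of all genes. The death domain adaptor TRADD (1.07 and 1.30 with mix 1 and mix 2), the Toll-like receptor adaptor MYD88 (1.05 and 0.84) and the kinase MAP3K8 (1.17 and 0.97) rose under both. MAP3K8 lay below the filter value in control (5.29 log2), and its other probe set rose by 1.71 and 1.64. CHUK, a catalytic subunit of the IkB kinase, fell by 1.16 on the log2 scale with mix 1 and by 0.60 with mix 2. MAP3K14, the kinase that starts the non-canonical pathway, fell too (-0.49 and -0.38). IRAK1, a kinase of the same receptor complex as IRAK2, fell with mix 1 (-0.81, adjusted p = 1.40e-07) and with mix 2 (-0.34, adjusted p = 7.25e-04). TRAF5 fell with mix 2 (-0.59) and read -0.13 with mix 1 (adjusted p = 0.149). Between the mixes, MALT1 (0.67) and RIPK2 (0.57) were higher with mix 2, and TRAF5 (-0.47) and TAB2 (-0.32) were lower. Against control, MALT1 fell with mix 1 (-0.48) and read 0.19 with mix 2 (adjusted p = 0.0217). Its other probe sets fell with mix 2 (-0.26 and -0.22, adjusted p = 0.0088 and 0.0263), so its direction there is not settled. RIPK2 read -0.19 with mix 1 and 0.38 with mix 2, but its other probe set passed with neither (adjusted p = 0.171 and 0.144).

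Of 18 inhibitors and ubiquitin regulators, 10 rose and 2 fell with mix 1 (66.7% called against 67.1% of all genes; median 0.21). With mix 2, 8 rose and 2 fell (55.6% called against 68.6%; median 0.16). NLRC5, better known as an activator of MHC class I genes, rose by 2.01 and 1.53 with mix 1 and mix 2 and was lower with mix 2 (-0.47). TNIP1, a ubiquitin-binding partner of the TNFAIP3 protein, rose by 1.14 with mix 1 and 0.46 with mix 2, a difference of -0.68 between the mixes; its other probe set rose by 1.70 and 0.36. The receptor-like inhibitor SIGIRR rose by 0.73 with each mix, and the ubiquitin ligase gene RNF11 by 0.43 with mix 1 and 0.68 with mix 2. OTULIN, which removes linear ubiquitin chains, fell by 0.80 on the log2 scale with mix 1 and by 1.27 with mix 2. Its other probe set fell less, by 0.40 and by 0.19 (adjusted p = 1.83e-04 and 0.0335), so the size of the fall and its excess with mix 2 rest on 1 probe set. The inhibitor gene NFKBIE, in contrast to NFKBIA, fell with mix 1 (-0.30, adjusted p = 0.0061) and read -0.07 with mix 2 (adjusted p = 0.528). TAX1BP1 was higher with mix 2 than with mix 1 by 0.22, a call lost when shared probe sets were left out (0.42, adjusted p = 0.118).

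Of 17 target genes, 7 rose and 4 fell with mix 1 (64.7% called against 67.1% of all genes; median -0.01). With mix 2, 7 rose and 6 fell (76.5% called against 68.6%; median 0.06). The adhesion molecule ICAM1 read 7.48, 7.46, 7.53 and 7.40 log2 in control, 9.13, 9.10, 9.24 and 9.14 with mix 1, and 9.13, 9.14, 9.08 and 8.88 with mix 2. It rose by 1.69 and 1.59 (adjusted p = 1.58e-11 and 2.16e-11). The size differed between probe sets, since its other 2 rose by 2.82 and 1.78 and by 0.45 with each mix. IER3 (1.44 with mix 1 and 0.59 with mix 2) and the prostaglandin synthase PTGS2 (1.03 and 0.63) rose under both. IER3 was lower with mix 2 than with mix 1 by 0.86 (difference -0.86). The caspase-8 antagonist gene CFLAR rose by 0.94 with mix 1 and 1.00 with mix 2, and its other probe sets by 0.35 to 1.51 and 0.43 to 1.16. The stress gene GADD45B lay at 9.65, 9.83, 9.61 and 9.47 log2 in control, 7.84, 7.87, 7.79 and 7.74 with mix 1, and 7.92, 7.82, 7.85 and 7.66 with mix 2. It fell by 1.83 on the log2 scale under each mix (adjusted p = 3.70e-11 and 3.07e-11). Of its other 3 probe sets, 2 fell by 1.54 to 1.63 on the log2 scale. The remaining one, the only one left when shared probe sets (names ending in _s_at or _x_at) are dropped, fell by 0.52 with mix 1 and by 0.49 with mix 2 (adjusted p = 7.39e-04 and 0.0012). The dendritic cell marker CD83 (-1.28 and -0.83 with mix 1 and mix 2) and the cytokine gene LIF (-0.49 and -1.01) fell as well. SOD2, a mitochondrial superoxide dismutase, fell with mix 2 (-1.02) and was lower with mix 2 than with mix 1 (-0.70). SOD2 was read by only 1 probe set above the filter. With mix 1 it read -0.32 (adjusted p = 0.0532), and whether that passed depended on the processing. The mix 1 difference of SOD2 passed with centred arrays, with only 2 groups, with a replicate block and with a robust trend. It did not pass without a filter or without control replicate A or B. The cytokine IL6 rose with mix 2 (0.76, adjusted p = 4.05e-06), read -0.01 with mix 1 (adjusted p = 0.936) and differed by 0.77 between the mixes. The chemokine CXCL8 fell with mix 1 (-0.465, adjusted p = 2.15e-04) and read 0.06 with mix 2 (adjusted p = 0.548). It was thus higher with mix 2 than with mix 1 by 0.53 (adjusted p = 1.13e-04). Its other probe set passed against control with neither mix (-0.31 and 0.21, adjusted p = 0.121 and 0.292).

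**Figure D4:**
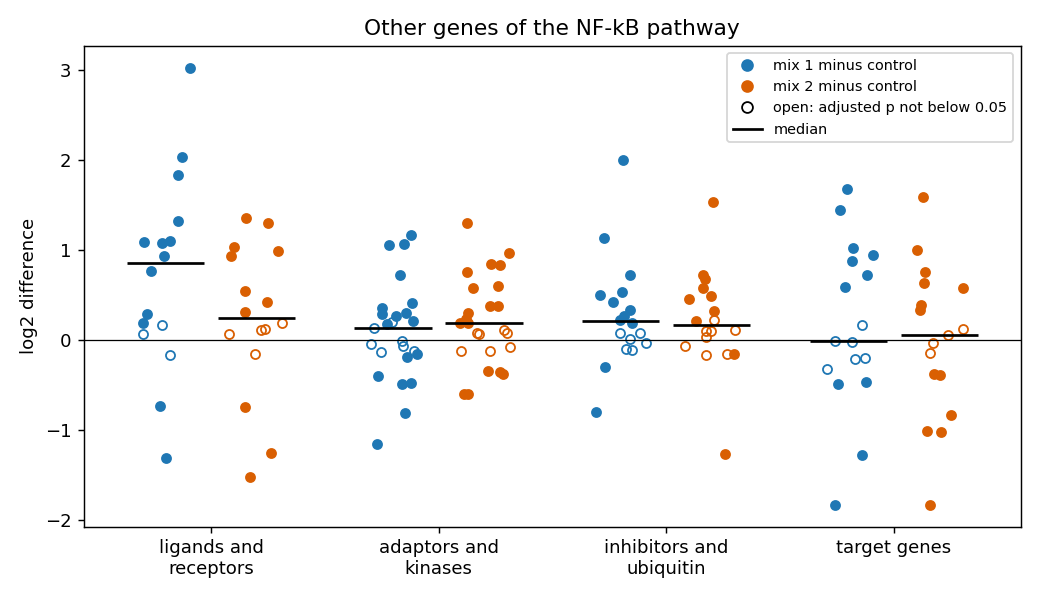
Log2 difference from control of the 76 tested genes of the 4 pathway lists, with mix 1 in blue and mix 2 in orange; each point is a gene, filled where the adjusted p is below 0.05, and black lines are list medians. Points lie on both sides of 0 in every list, and the ligand and receptor list has medians of 0.85 with mix 1 and 0.25 with mix 2.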

How the data were processed

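RNA of 12 cultures of MDA-MB-231 cells was hybridised to 3′ expression arrays. The log2 values deposited by the authors cover 54675 probe sets on 12 arrays, and the submitters' processing notes name RMA as the method, with no version or option stated in the sources used here. RMA gives arrays 1 distribution, so a shift of all genes is not visible. Arrays have no read depth; their number limits the precision. Symbols came from GEO's platform annotation and were updated by gene ID with the RefSeq gene table (GRCh38.p14) for 41037 of 41091 probe sets.

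Probe sets with 1 symbol and a mean above the 40th percentile were kept, the brightest per gene, and 3 group means were fitted to 12 arrays with limma 3.58.1 (R 4.3.3; lmFit, default eBayes, 9 residual degrees of freedom). P-values are two-sided and Benjamini-Hochberg adjusted over 13225 genes (24650 in the probe set fit), with a threshold of 0.05. The fit was tested on simulated data with independent normal noise and few changed genes. In the real data most genes tested were called, so that test does not check the shares called here.

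All 9 measured genes are described; pathway genes were named by size (up to 3 per list, direction and mix, up to 2 between mixes) among those called with groups that do not overlap. The genes and lists were chosen with earlier results of these data known. Replicate letters were checked for pairing, which the labels do not state. Between mix 1 and control, same-letter deviations correlated at 0.370, 0.251, 0.409 and 0.340, all above 0.1. Replicate B of mix 1 correlated best with control A, however, so the letters matched only in part. Same-letter values were 0.034 to 0.212 between mix 2 and control, and -0.085 to 0.273 between the mixes. The alternatives were no filter, the 60th percentile, the mean of probe sets, no shared probe sets (names ending in _s_at or _x_at), centred arrays, only 2 groups, a replicate block, a robust trend, and leaving out each array. Motifs were searched in RefSeq's sequences with Python 3.11.15.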

Additional observations from a re-analysis of the deposited data

Results flagged for a closer look

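Dixon's test was applied to 63 groups of 4 arrays (21 NF-kB probe sets in 3 groups). In 6 of them 1 array's gap to the others, as a share of the group's range, exceeded the critical value for 4 samples. Chance gives about 1 in 20 for independent normal values, but these probe sets share arrays. The share over all probe sets was not computed. Above the filter, NFKBIA in mix 2 had replicate D at 10.17 log2 against 10.49 to 10.54 on the other arrays, and a probe set of REL in mix 2 had D at 6.02 against 6.47 to 6.55. NFKBIZ had control C at 9.66 against 9.72 to 9.73, and its second probe set had mix 1 D at 9.10 against 9.30 to 9.32. Below the filter, a REL probe set had mix 1 C at 4.17 against 3.42 to 3.47, and an IRAK2 probe set had mix 1 B at 2.70 against 3.01 to 3.03. Replicate D was the lowest mix 2 array for 10 of the 15 NF-kB probe sets above the filter and for 51.8% of all 24650 probe sets. Without it NFKBIA still rose with mix 2, by 0.70 (adjusted p = 9.66e-08).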

How the results depend on the processing

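Counts of called genes over all genes, the NF-kB genes and the pathway lists stayed within 1.5 times under every alternative, except for the NF-kB genes without shared probe sets. That alternative left 4 of the 9 genes to test and gave 4 called with mix 1, 2 with mix 2 and 3 between the mixes, in each case the same genes as among those 4 before. Leaving out 1 array gave 7 to 9 NF-kB genes with mix 1, 5 to 6 with mix 2 and 4 to 6 between the mixes, and 50 to 56, 49 to 56 and 40 to 45 pathway genes. With the replicate block the NF-kB counts were 9, 5 and 6, and no call stated for an NF-kB gene changed. The pathway counts were 58, 52 and 46 with the block (54, 52 and 43 without it). Of 108 results for the named pathway genes, 4 calls changed with the block. Among them were IL1RAP and SOD2 with mix 1, which passed only with it in that pair of fits. Calls of NFKB1, NFKBIA, NFKBIZ, TNFAIP3 and IRAK2 against control held under all alternatives run, with REL and RELB for mix 1. Reversed signs were TAX1BP1 with mix 1 (0.27, to -0.11 without shared probe sets), MALT1 with mix 2 (0.19, to -0.10 with the mean of its probe sets) and CFLAR between the mixes (0.06, to -0.36 without shared probe sets); the cause was not tested. A probe set stands for a gene's transcripts only in part, and small differences near background are compressed on arrays.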

Other observations

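Of the pathway lists, 11 genes lay below the filter and were not tested. Among them were cytokines and chemokines that signal to or through NF-kB. TNF, the classical activating cytokine, had group means of 3.97 log2 in control, 3.95 with mix 1 and 3.99 with mix 2. IL1A read 5.15, 5.13 and 4.90, the chemokine CCL5 4.83, 4.67 and 4.75, CCL20 3.94, 3.96 and 3.91, and CCL2 3.13, 3.15 and 3.21. The adhesion molecule VCAM1 read 3.98, 4.17 and 3.90, in contrast to ICAM1, which was well above the filter in every group. The other genes below the filter were TNFSF11, IL18R1, TNIP3, BCL2A1 and TNFAIP6, with group means between 3.06 and 4.17.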
